A study of Zea mays with 4 samples.

Results

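The glutathione transferase genes of maize were examined on 4 Affymetrix maize arrays, 2 hybridised with RNA of the inbred line F98902 and 2 with RNA of the inbred line Cm489. Members were all probe sets whose gene carries a symbol or synonym made of gst and a number, dim probe sets included. This gave 35 of 17621 non-control probe sets, for 31 genes of the 1108 that were named. Of these genes 29 had 1 probe set, gst13 had 2 and gst31 had 4. The series concerns the diversity of the maize cell wall, and its labels give no treatment, no mutant and no further line. In both lines the plants were at flower development and grew in soil under a 16/8 light cycle and natural light, and the sampled material is described only as aerial. RNA yields in the labels were 102 ug (F98902 replicate 1), 52 ug (F98902 replicate 2) and 100 ug (Cm489 replicate 2). The amount for Cm489 replicate 1 was not used, because its extraction note names the other Cm489 sample. Each title carries its own code after the line name, and nothing in the labels says whether the samples of 1 line are separate plants. The spread between samples on which the p-values rest may therefore be technical.

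Glutathione transferases join the thiol of the tripeptide glutathione to reactive, often hydrophobic compounds. In plants the conjugates are then carried into the vacuole by ABC transporters of the MRP type. Maize enzymes of this family are best known for detoxifying chloroacetanilide and triazine herbicides, and some are induced by safeners, chemicals that protect the crop from a herbicide. Most plant members belong to the phi and tau classes, which form large families with clusters of neighbouring copies. Other members reduce peroxides or carry flavonoids.

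All values are log2 signals of a probe set, and signals of different probe sets are not comparable as transcript levels. Non-control probe sets had array medians of 7.002 and 7.06 in F98902 and of 7.05 and 7.12 in Cm489. Array tag controls, which have no target in maize, lay between 1.67 and 2.17. A line was called on for a probe set at log2 4 or above on both its arrays, off below 4 on both, and mixed otherwise. Being off gives no level, and a missing transcript cannot be told apart from a sequence difference between a line and the probes. In bulk tissue, fewer cells of a type cannot be told apart from less RNA per cell. Of 16 probe sets of green tissue genes fixed as a check of the aerial label, the 13 tested ones were on in both lines. Another 2 were off on all arrays, and that of pep1 reached log2 4 only on Cm489 replicate 2. The tested gene rbcS (LOC542212), for the small subunit of Rubisco, was named after its values were seen. It read 12.79 and 10.60 in F98902 and 10.59 and 12.95 in Cm489. The green tissue genes also differed within each line. Over their 13 tested probe sets the median signal was 11.04 and 8.94 on F98902 replicates 1 and 2 and 7.23 and 9.30 on Cm489 replicates 1 and 2. In that list PDK1 (LOC541677) matched by symbol alone. The 5' minus 3' signal of the EF1-alpha control, a measure of RNA integrity, was -1.88 and -2.97 in F98902 and -3.42 and -4.44 in Cm489. The 18S rRNA control, a single signal, also lay higher in F98902 (9.69 and 8.28) than in Cm489 (6.996 and 7.68). The other 3 integrity controls overlapped between the lines. For GAPDH the values were -2.02 and -3.65 in F98902 and -4.10 and -3.27 in Cm489, for cyclophilin -0.83 and -1.65 in F98902 and -1.61 and -1.02 in Cm489, and for ubiquitin -1.60 and -1.36 in F98902 and -1.60 and -1.55 in Cm489.

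Of the 31 genes, 10 were on in all arrays by every probe set, 10 had no probe set at or above log2 4 on any array, and 11 changed state between arrays. The genes on throughout were gst1, gst2, GST3, gst5, gst17, gst18, gst19, gst30, GST39 and gst41. By probe set, 10 of 35 were on in both lines, where 56.7% of all non-control probe sets were. A further 11 were off in both lines, where 32.4% of all probe sets were. The mixed state was found in 12 members, against 8.51% of all probe sets. Split by line, meaning on in one line and off in the other, were 2 members, both probe sets of gst31 and both on in F98902, where 1.31% of all probe sets were split in that direction. No member was split with Cm489 on, a state of 1.08% of all probe sets.

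**Figure D1:**
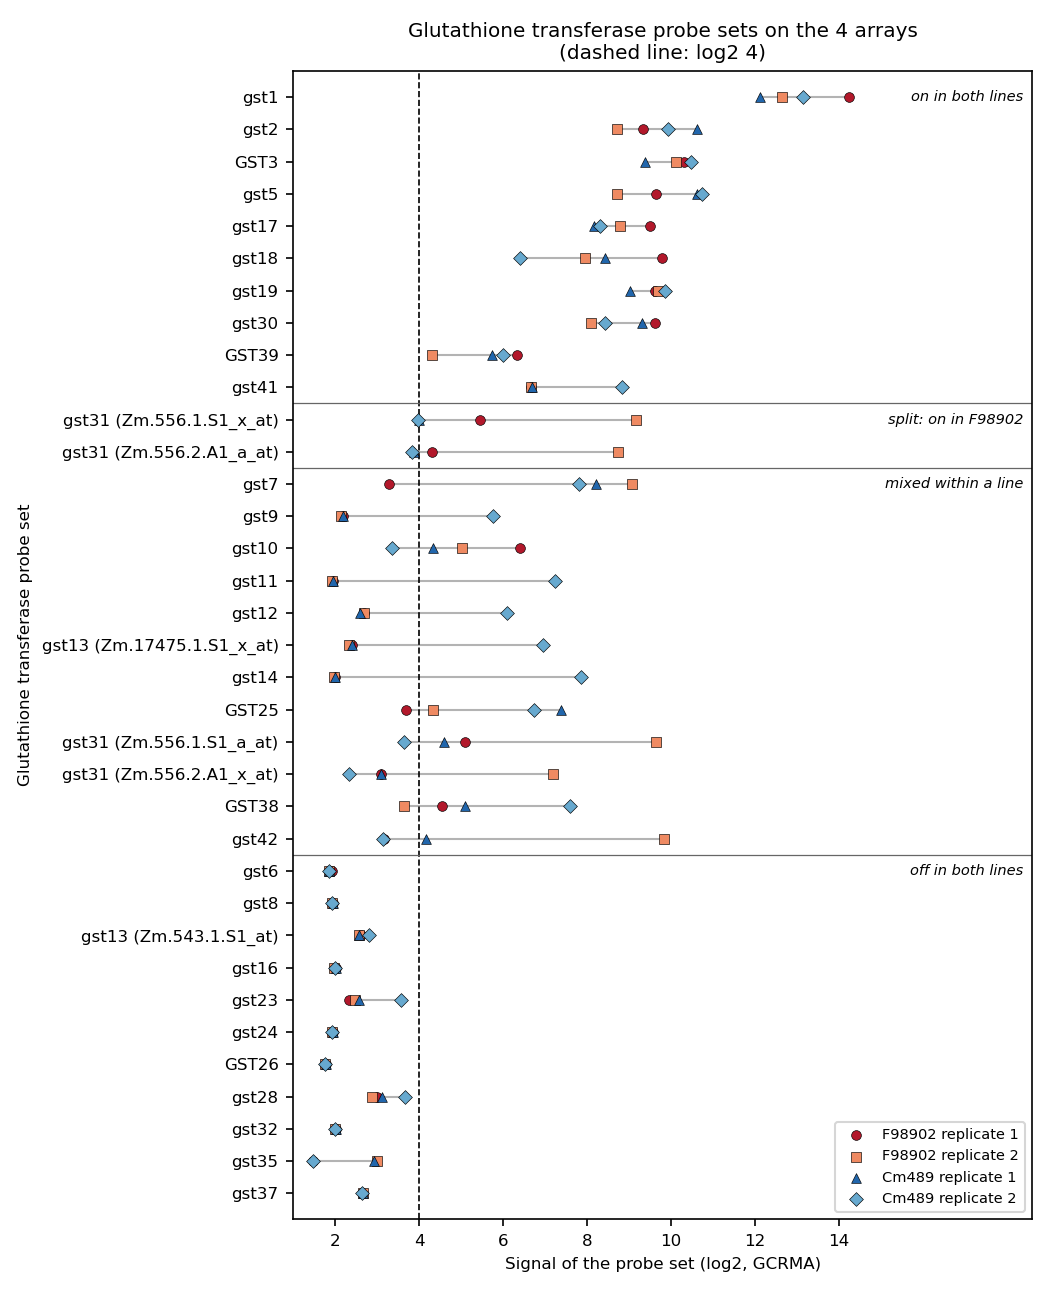
Log2 signal of each of the 35 glutathione transferase probe sets (rows, grouped by state) on the 4 arrays (symbols), with a dashed line at log2 4. The 10 probe sets on in both lines keep all symbols right of the line, the 11 off in both lines lie between 1.47 and 3.66, and most of the 12 mixed ones have 1 array far from the others.

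The enzymes best known from herbicide metabolism were on in both lines. The gene gst1 (LOC542366) encodes GST I, an abundant constitutive phi class enzyme that conjugates chloroacetanilides. It gave 14.24 and 12.63 in F98902 and 12.13 and 13.15 in Cm489, so the arrays of the lines overlapped, and the difference of 0.79 (SE 0.77, limma adjusted p = 0.863) was within the spread between arrays. The order of its 4 arrays was that of the green tissue median given above. Other members, such as gst19 and gst30, had another order, and such matches were not counted over the members or all probe sets. The part of tissue makeup in the gst1 values was not tested.

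GST3 (LOC541990, also listed as gst4) encodes GST III, likewise active on chloroacetanilides. Its signal was 10.32 and 10.11 in F98902 and 9.39 and 10.49 in Cm489. Both F98902 arrays lay between the Cm489 arrays, and the difference was 0.28 (SE 0.55, limma adjusted p = 0.946).

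The gene gst2 (LOC542311, also GST4 and GSTIV) encodes the safener-inducible GST IV. It was at 9.34 and 8.72 in F98902 and at 10.63 and 9.93 in Cm489. Both F98902 arrays lay below both Cm489 arrays, by a mean of -1.25 (SE 0.51, 95% interval -2.66 to 0.16), which did not pass (limma adjusted p = 0.555). The safener gene In2-1 (LOC542388), whose product resembles glutathione transferases and which was singled out after its values were seen, gave 6.06 and 5.97 in F98902 and 6.05 and 6.10 in Cm489, nearly the same on every array.

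Between the lines, 0 of 18 tested members passed limma at an adjusted p under 0.05, against 1.78% of all 11242 tested probe sets. At an unadjusted p under 0.05 there were 2, gst5 and GST25, against 10.5% of all tested probe sets. The remaining 17 members did not reach log2 4 on at least 2 arrays and were not tested. The smallest differences that passed anywhere on the array were 3.62 and -3.70, and the largest among the members was 3.32 in size. A member that did not pass may therefore still differ. Of the tested members 10 were higher and 8 lower in F98902 on average, against 48.8% higher among all tested probe sets, with a median difference of 0.24 against -0.02 over all tested probe sets. Leaving out Cm489 replicate 1 gave a median of 0.04, leaving out Cm489 replicate 2 gave 0.53, and 1 probe set per gene gave 0.09. In absolute size the median difference was 1.49 in the members and 0.53 over all tested probe sets. Replicate SDs were also larger in the members, with medians of 1.02 in F98902 and 0.60 in Cm489. Over all tested probe sets they were 0.52 in F98902 and 0.45 in Cm489. With 1 probe set per gene the members had a median absolute difference of 1.36. Their median SDs were then 0.81 in F98902 and 0.64 in Cm489. The arrays of the lines did not overlap in 10 of the 18, against 38% of all tested probe sets, with F98902 above in 5 (18.1% of all) and below in 5 (20% of all). Those above are gst10, gst17 and the tested probe sets of gst31, so 1 gene counts more than once. Among those below, gst41 was separated narrowly, by 6.66 on the higher F98902 array against 6.69 on Cm489 replicate 1. With 2 arrays a line, the smallest two-sided p of an exact permutation test is 0.333.

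GST25 (LOC541838) had the largest difference relative to its error. Its signal was 3.68 and 4.34 in F98902 and 7.39 and 6.75 in Cm489. The arrays of each line lay within 0.66 of each other, and both F98902 arrays were near the level taken as off. The difference was -3.06 (SE 0.51, 95% interval -4.46 to -1.66), with an adjusted p of 0.123 in limma over all tested probe sets. Since 1 F98902 array was above log2 4, GST25 counted as mixed, and with the level set at 5 or 6 it was split by line, on in Cm489 and off in F98902.

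The gene gst5 (LOC542734) was on in both lines with lower signal in F98902. It gave 9.63 and 8.71 in F98902 and 10.62 and 10.75 in Cm489, a difference of -1.51 (SE 0.51, 95% interval -2.92 to -0.11, limma adjusted p = 0.438). The F98902 arrays lay below both Cm489 arrays.

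GST38 (LOC541847) was at 4.53 and 3.63 in F98902 and at 5.08 and 7.59 in Cm489. F98902 was again the lower line, but the Cm489 arrays lay 2.51 apart, and the difference of -2.25 (SE 1.02, limma adjusted p = 0.609) was -0.996 without Cm489 replicate 2. The gene gst41 (LOC541849) had nearly equal values of 6.66 and 6.66 in F98902 and 6.69 in Cm489 replicate 1, with 8.83 in Cm489 replicate 2. Its mean difference of -1.10 (SE 0.85, limma adjusted p = 0.818) was -0.03 without Cm489 replicate 2.

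In the other direction stood gst31 (LOC541842), whose 4 probe sets all had both F98902 arrays above both Cm489 arrays, Zm.556.2.A1_x_at only narrowly (below). Zm.556.1.S1_x_at gave 5.44 and 9.17 in F98902 and 3.99 and 3.97 in Cm489. It was split by line at log2 4. With Cm489 set to 4, the F98902 mean was 3.30 higher, but that mean averages 5.44 and 9.17. The fitted difference was 3.32 (SE 1.37, 95% interval -0.45 to 7.10, limma adjusted p = 0.556), so the interval covers both directions. Zm.556.2.A1_a_at, the other split probe set, gave 4.30 and 8.75 in F98902 and 3.88 and 3.84 in Cm489. With Cm489 set to 4, its F98902 mean was 2.52 higher. Its fitted difference was 2.66 (SE 1.61, 95% interval -1.80 to 7.12, limma adjusted p = 0.757).

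The remaining probe sets of gst31 had the same order of lines but not the same state. Zm.556.1.S1_a_at read 5.09 and 9.65 in F98902 and 4.60 and 3.64 in Cm489. Zm.556.2.A1_x_at read 3.09 and 7.19 in F98902 and 3.08 and 2.33 in Cm489, which kept it out of the test. Its lines were separated only by 3.09 on F98902 replicate 1 against 3.08 on Cm489 replicate 1, values that give no level. In all 4 the high value was that of F98902 replicate 2, and without that array the fitted difference of the 3 tested ones was between 0.43 and 1.46. The size of the gst31 difference therefore rests largely on 1 array, while the state of the 2 split probe sets did not change without it. Their Cm489 values lay just under log2 4, and at a level of 5 Zm.556.1.S1_x_at was still split. Probe sets whose name ends in x_at or a_at can pick up more than 1 transcript.

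Smaller differences with F98902 above were seen in gst10 and gst17. The gene gst10 (LOC541828) gave 6.40 and 5.03 in F98902 and 4.32 and 3.35 in Cm489, a difference of 1.88 (SE 0.71, 95% interval -0.08 to 3.84, limma adjusted p = 0.506). The gene gst17 (LOC542543) gave 9.49 and 8.79 in F98902 and 8.16 and 8.31 in Cm489, a difference of 0.91 (SE 0.46, limma adjusted p = 0.690). In both the lines did not overlap and neither passed. The signal of the EF1-alpha 5' end relative to its 3' end and the 18S rRNA signal separated the lines in the same way (above). The other 3 integrity controls did not. The part of RNA quality in these line differences was not tested.

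**Figure D2:**
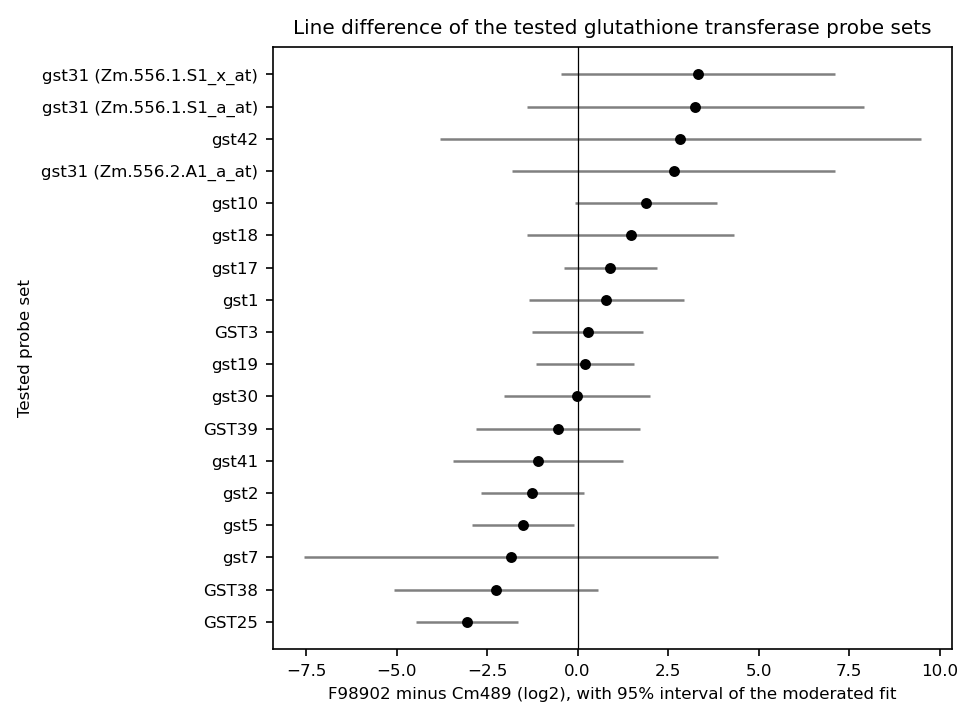
Fitted difference F98902 minus Cm489 (log2, points) of the 18 tested probe sets with the 95% interval of the moderated fit (lines, not adjusted for the number of probe sets). The intervals of GST25 and gst5 lie below 0, and those of gst7, gst31 and gst42 are the widest.

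The lines overlapped in gst18, gst19, gst30 and GST39, which were on throughout. The gene gst18 (LOC541833) had the widest range over all arrays of these 4 genes, with 9.79 and 7.95 in F98902 and 8.42 and 6.39 in Cm489. Its difference of 1.46 (SE 1.04) became 0.45 when Cm489 replicate 2 was left out and 2.475 when Cm489 replicate 1 was. GST39 (LOC541848) read 6.34 and 4.31 in F98902 and 5.74 and 5.999 in Cm489, so F98902 supplied both the highest and the lowest array. The gene gst19 (LOC541834) was steady, at 9.62 and 9.68 in F98902 and 9.03 and 9.86 in Cm489, and differed by 0.20 (SE 0.49). The gene gst30 (LOC541841), at 9.61 and 8.09 in F98902 and 9.30 and 8.44 in Cm489, had means that were -0.02 apart (SE 0.73). Their adjusted p ran from 0.810 for gst18 to 0.997 for gst30 in limma.

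Replicates of 1 line were often far apart in these genes. The range over the 4 arrays reached 2 in 19 of the 35, against 25.3% of all probe sets. The arrays of F98902 lay at least 2 apart in 7 members, against 10.6% of all probe sets, and those of Cm489 in 8, against 8.16%. Of the 19 members, 8 were highest on Cm489 replicate 2, 6 on F98902 replicate 2, 4 on F98902 replicate 1 and 1 on Cm489 replicate 1. All 4 probe sets of gst31 are among these 19, among the 7 of F98902 and among the 6 highest on F98902 replicate 2. In these counts 1 gene therefore stands 4 times. Among all probe sets with such a range 27.3% were highest on Cm489 replicate 2 and 21.5% on F98902 replicate 2.

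On Cm489 replicate 2 alone, 5 members from 5 genes reached log2 4. The same pattern was found in 1.4% of all probe sets. On F98902 replicate 2 alone it was found in 1 member and 0.738% of all probe sets, and on F98902 replicate 1 alone and Cm489 replicate 1 alone in 0 members each, and in 1.01% and 0.63% of all probe sets. These 5, grouped by this pattern after their values were seen, are gst9, gst11, gst12, gst13 and gst14. On that array they read between 5.77 and 7.85, and on the other 3 arrays between 1.92 and 2.69. The gene gst14 (LOC541832) was at 1.999 and 1.98 in F98902, and at 1.995 in Cm489 replicate 1 and 7.85 in Cm489 replicate 2. The gene gst11 (LOC541829) was at 1.95 and 1.92 in F98902, and at 1.94 and 7.23 in Cm489. Both were thus at the level of the tag controls on 3 arrays and clearly above it on the fourth.

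The other 3 genes of this pattern had smaller excursions. The gene gst12 (LOC541830) read 2.69 and 2.69 in F98902 and 2.60 and 6.10 in Cm489. The gene gst9 (LOC542629) read 2.19 and 2.14 in F98902 and 2.19 and 5.77 in Cm489. For gst13 (LOC541831) the probe sets disagreed, since Zm.17475.1.S1_x_at read 6.95 on Cm489 replicate 2 and Zm.543.1.S1_at read 2.80 there, 4.15 apart, while on the other arrays they lay within 0.24 of each other. Such a probe set enters no test, as only 1 array reached log2 4. The C4 gene pep1 (LOC542372), in the green tissue list for phosphoenolpyruvate carboxylase and named after its values were seen, had the same pattern, at 2.79 and 2.37 in F98902 and at 2.86 and 6.01 in Cm489. Of the 1452 probe sets named with 1 gene, 32 had it (2.2%), 5 of them members and 27 not.

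F98902 replicate 2 stood apart in gst42 (LOC541850) as in gst31. It read 3.16 and 9.82 in F98902 and 4.17 and 3.13 in Cm489. The fitted difference of 2.84 had a 95% interval from -3.81 to 9.48 (SE 2.404, limma adjusted p = 0.836) and turned to -0.50 without F98902 replicate 2. That sample also has the smallest of the 3 RNA amounts given above, and the part of RNA amount was not tested.

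In gst7 (LOC542587) the odd array was F98902 replicate 1. Its signal was 3.29 and 9.06 in F98902 and 8.22 and 7.81 in Cm489. The mean difference of -1.84 (SE 2.07, limma adjusted p = 0.887) turned to 1.05 when F98902 replicate 1 was left out. MRP1 (LOC100037760), a gene of the conjugate transport list, was also low on that array alone, at 2.91 and 8.91 in F98902 and at 8.87 and 6.40 in Cm489.

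**Figure D3:**
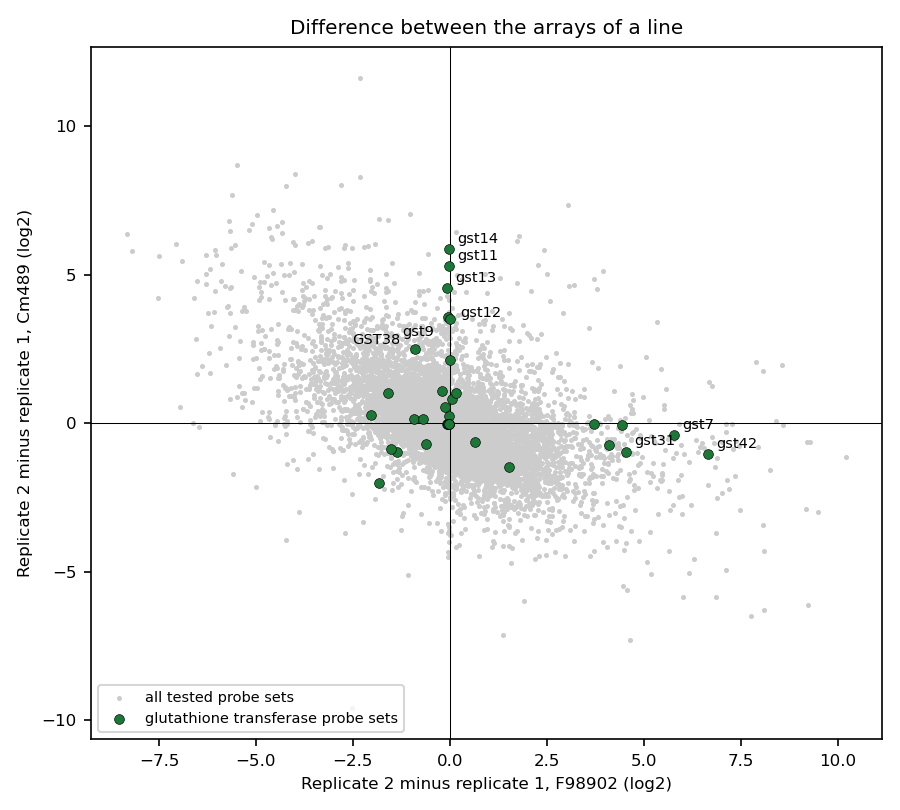
Replicate 2 minus replicate 1 (log2) in F98902 (horizontal) and in Cm489 (vertical) for the 35 glutathione transferase probe sets (green) and all 11242 tested probe sets (grey). The genes gst9, gst11, gst12, gst13 and gst14 lie on the vertical axis with no shift in F98902, and gst7, gst31 (4 points, 1 labelled) and gst42 lie near the horizontal axis.

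Several members are neighbours in the RefSeq annotation of the B73 genome, which was used for gene order only. In 6 pairs no other annotated gene lies between the members. The genes gst11 and gst12 are such a pair, and gst10 follows after 1 other gene. Of these 3, gst11 and gst12 reached log2 4 only on Cm489 replicate 2, the array on which gst10 had its lowest signal, 3.35. The genes gst13 and gst9, also adjacent, were both high on Cm489 replicate 2, by 1 of 2 probe sets in the case of gst13.

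A larger group runs gst42, gst32, gst37, GST39, GST38 and gst30, with no more than 3 other genes between neighbours. Its members had unlike patterns. The genes gst32 (LOC541843) and gst37 (LOC541846) were off, from 1.99 to 2.02 and from 2.65 to 2.66 over the 4 arrays. Next to them gst42 was high on F98902 replicate 2 alone, GST38 was highest on Cm489 replicate 2, and gst30 was on everywhere.

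The remaining neighbours were gst28 with gst7, which are adjacent, and GST25 with gst35, which are 1 gene apart. In both, 1 partner was off. The gene gst28 (LOC541840) stayed between 2.87 and 3.66, and gst35 (LOC542491) between 1.47 and 2.99. Near-identical neighbouring copies can share probe signal, and how far the probe sets distinguish them was not tested.

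**Figure D4:**
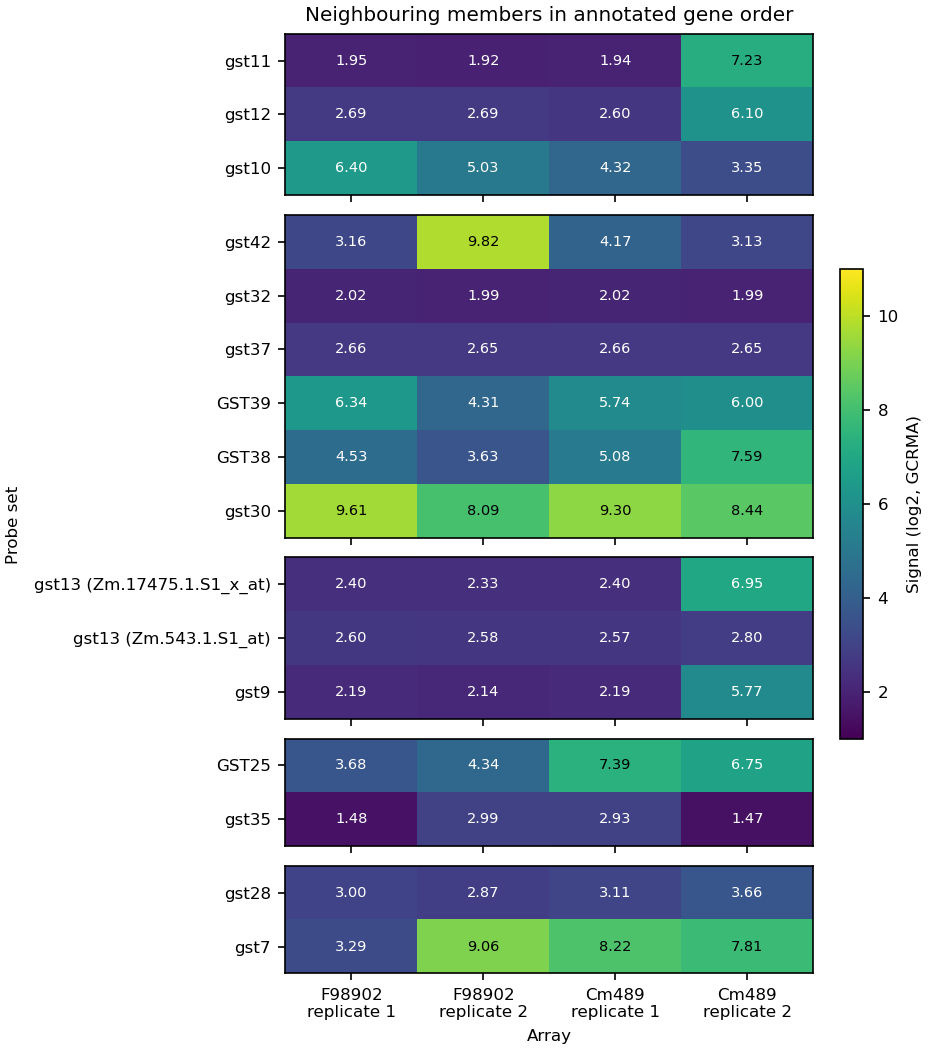
Log2 signal (colour and printed value) of neighbouring members in annotated gene order (rows, 1 panel for each group of neighbours) on the 4 arrays (columns, F98902 left of Cm489). High signals on Cm489 replicate 2 appear in gst11, gst12, gst13, gst9 and GST38, and that of gst42 appears on F98902 replicate 2.

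The members off in both lines were gst6, gst8, gst16, gst23, gst24, GST26, gst28, gst32, gst35 and gst37 and 1 of the probe sets of gst13. Of these 11 probe sets 6 lay within the range of the tag controls on all 4 arrays. The gene gst23 (LOC541845), a gene linked in maize mapping studies to resistance to several leaf diseases, read 2.32 and 2.48 in F98902 and 2.57 and 3.57 in Cm489. These signals allow no statement on a difference between the lines.

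Other genes of glutathione use were read from the same fit, and 0 of 18 tested probe sets of the 3 companion lists passed in limma, against 1.78% of all tested probe sets. At an unadjusted p under 0.05 there were 3, against 10.5%. Glutathione is made by the enzymes of gsh1 and gsh2 and kept reduced by that of gor1. The gene gsh1 (LOC542026), for glutamate-cysteine ligase, the entry step, was at 8.34 and 8.75 in F98902 and at 9.72 and 10.00 in Cm489. F98902 lay below Cm489 without overlap, by -1.32 (SE 0.43, 95% interval -2.50 to -0.14, limma adjusted p = 0.413). The gene gsh2 (LOC542055), for glutathione synthetase, differed by -0.07 (SE 0.42), and gor1 (LOC541986), for glutathione reductase, by 0.83 (SE 0.57). In gor1 F98902 lay above Cm489, also without overlap.

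Among antioxidant enzymes 9 of 10 tested probe sets were higher in F98902 on average, against 48.8% of all tested probe sets, with a median difference of 0.65, and none passed. In the green tissue list 11 of 13 tested probe sets, from only 7 genes, were higher in F98902, with a median of 0.95. Those 11 include the tested probe sets of PDK1 (LOC541677), at 0.95 and 0.78, which matched by symbol alone. The median itself is the value of PDK1, so it is not that of a chosen green tissue gene. The gene rbcS was among the 2 lower ones, at -0.08. The part of tissue makeup in the antioxidant values was not tested. CAT3 (LOC542370), for a catalase, read 13.51 and 12.67 in F98902 and 11.45 and 11.62 in Cm489, a difference of 1.55 (SE 0.49, 95% interval 0.19 to 2.92, limma adjusted p = 0.402). The thioredoxin gene trm1 (LOC542254) read 11.44 and 7.39 in F98902 and 5.19 and 9.001 in Cm489, so its arrays overlapped between the lines. Their order was that of the green tissue median, a match that was not counted over the list or all probe sets. PRX42 (PER42) is a peroxidase gene that matched the list by symbol alone, and it differed by 1.23 (SE 0.64).

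Of the safener, xenobiotic oxidation and transport list all 5 tested probe sets were lower in F98902 on average, where 48.8% of all tested probe sets were higher, and none passed. Their median difference was -1.43. The largest difference was that of LOC542540, at 4.08 and 2.65 in F98902 and 6.31 and 6.94 in Cm489 (-3.26, SE 0.67, limma adjusted p = 0.196). It shares the name lpa1 with a transporter gene but is INO1, an inositol phosphate synthase gene. CYP88A1 (LOC542580), likewise matched by symbol and a gibberellin synthesis gene, differed by -1.43 (SE 0.82). With these set aside, after values were seen, the median of the remaining 3 tested probe sets was -0.11. They are those of MRP1, In2-1 and the transporter gene MRP4 (LOC100125659), also named after its values were seen, at 11.06 and 12.48 in F98902 and 11.80 and 11.96 in Cm489. Their differences were -1.72 in MRP1, -0.06 in In2-1 and -0.11 in MRP4. Both probe sets of MRP2 (LOC542680), the other transporter gene of the list, were off on all arrays.

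**Figure D5:**
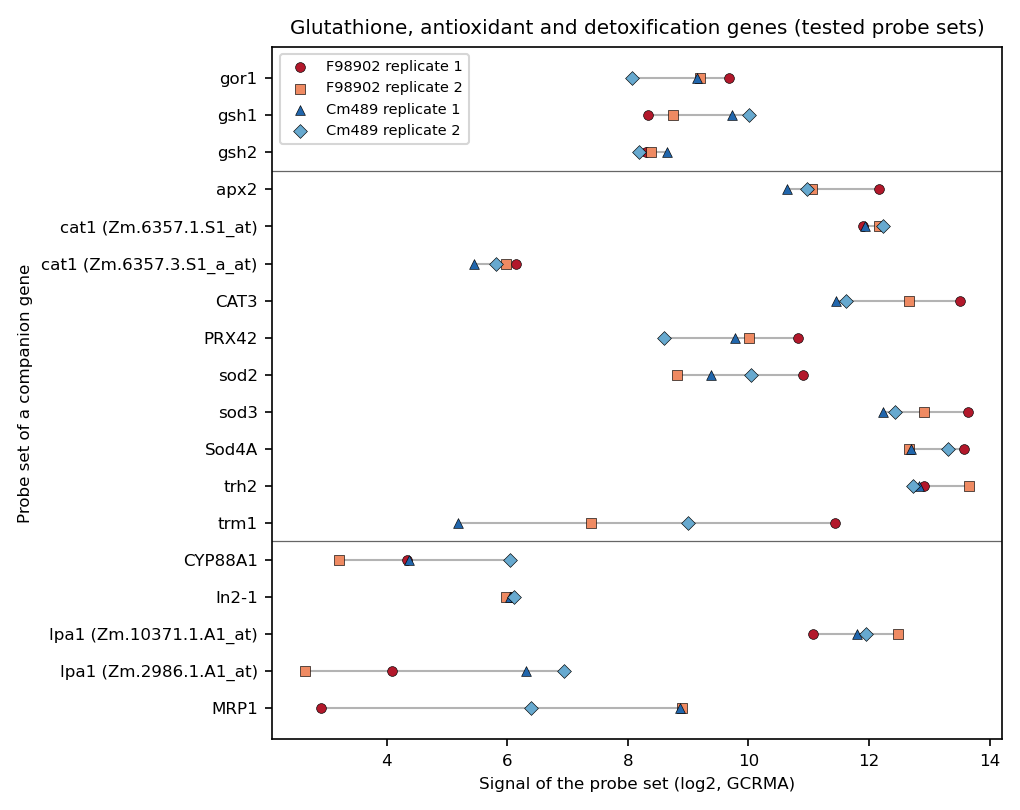
Log2 signal on the 4 arrays (symbols) of the 18 tested probe sets of genes for glutathione synthesis and reduction (top), antioxidant enzymes (middle) and safener response, oxidation and conjugate transport (bottom). The lines do not overlap in 2, 6 and 2 probe sets of these lists, against 38% of all tested probe sets. Among them F98902 lies below Cm489 in gsh1 and above it in gor1 and CAT3. MRP1 is low on F98902 replicate 1.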

How the data were processed

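Total RNA was labelled with biotin after amplification and hybridised to 4 arrays, 2 per line. The deposited values, 1 per probe set and array, were made by the authors with GCRMA, per the submitters' processing notes, and are on a scale taken as log2 from their range of 1.18 to 15.28. The version of GCRMA is not given in the sources used here. Of 17734 rows 113 were array controls and stayed out of the tests.

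Probe sets were named through the platform annotation and the Entrez number of their gene, with synonyms from the RefSeq table of assembly Zm-B73-REFERENCE-NAM-5.0. Of 17621 probe sets 1452 could be given 1 gene, 16168 were unnamed here and 1 had several genes. No sequences were used.

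A probe set was tested at log2 4 or more on at least 2 arrays. All 11242 such probe sets were fitted together with limma 3.58.1 under R 4.3.3 (two-sided, F98902 minus Cm489, Benjamini-Hochberg over all tested, threshold 0.05). SE and interval are those of the moderated fit. A run on simulated data, with noise independent between probe sets, checked only that added differences came back at about their size. Every member is named. Of companion genes, chosen by symbol, at most the 3 largest differences of a list are named, with exceptions marked. Of the green tissue list rbcS and pep1 were named after their values were seen. The members and lists were chosen with earlier results of these data known. Alternatives were other filters and levels, variance prior, scaling, replicate blocks, a stricter threshold, 1 probe set per gene and leaving out each array. The number of arrays limits the precision.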

Additional observations from a re-analysis of the deposited data

How the results depend on the processing

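The count of 0 members past the threshold was the same in every alternative run, as was that of the companion lists. Over all tested probe sets the count of 200 (105 higher and 95 lower in F98902) became 79 with no dim filter, 115 with values under log2 4 raised to 4, 8 with an intensity-dependent robust prior, 0 at a stricter limma threshold (adjusted p under 0.01), where 1183 had an unadjusted p under 0.05, and 0 to 0 with 1 array left out, a fit that gives the lone array the spread of the other line. A replicate block by number gave 0. Nothing in the labels pairs samples by number, and replicate 2 minus replicate 1 correlated at -0.558 between the lines across probe sets. The crossed pairing, chosen after seeing the data, gave 284. The 2 members split by line became 1 at a level of log2 3, 5 at log2 5, 1 at log2 6, 0 with quantile normalization, 0 with 1 probe set per gene, and 2 to 9 with 1 array left out, 9 being without Cm489 replicate 1. The 1 at log2 3 was gst28, and the 1 at log2 6 was GST25. The median difference of tested members turned to -0.0158 with a filter at log2 6. Of 137 single differences under settings other than a left-out array 135 kept direction and side of the threshold, and gst30 turned, to 0.0397 with each array shifted to one median and 0.0584 with quantile normalization. With 1 array left out 64 of 72 did. Differences that turned ran from -0.00792 to 1.595 in gst1, -0.27 to 0.83 in GST3, -4.72 to 1.05 in gst7, -0.21 to 0.61 in gst19, -0.77 to 0.74 in gst30, -1.56 to 0.47 in GST39 and -0.50 to 6.17 in gst42. Others ran from 0.45 to 2.475 in gst18, 1.19 to 2.57 in gst10, 0.56 to 1.26 in gst17, -1.97 to -1.05 in gst5, -1.60 to -0.90 in gst2 and -3.39 to -2.73 in GST25. As no member passed, keeping side means only that a difference still did not pass. Other filters, the variance prior and the replicate blocks leave each difference itself unchanged, so its direction could not turn under them. Apart from left-out arrays, direction could turn only with rescaled arrays or with values under log2 4 raised to 4. The cause was not tested.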
